A study of Mus musculus with 36 samples.

Results

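RNA and chromatin accessibility of 10 circadian clock genes were followed in mouse cortical neurons after 2 stimuli. The genes, listed by name, were Per1, Per2, Per3, Cry1, Cry2, Nr1d1, Nr1d2, Dbp, Bhlhe40 and Ciart, and all 10 were found among the 26709 genes of the normalised count table. Cortex of CD-1 mouse embryos at embryonic day 15 was dissociated, without sorting of cell types, and cultured for 7 days, so that a library is a culture from pooled embryos and not 1 animal. Every culture received 100 µM AP-5, which blocks NMDA receptors, together with 1 µM TTX, which blocks voltage-gated sodium channels. After 2 h of this silencing, neurons received either 10 ng/ml BDNF (brain-derived neurotrophic factor, the ligand of the TrkB receptor) or 55 mM KCl, which depolarises the membrane, for 1, 6 or 10 h. Control cultures stayed in AP-5 and TTX alone for 3, 8 or 12 h in all, the same total time as the cultures of 1, 6 and 10 h. The methods of the study describe no step that sets the cellular clocks of a culture to a common phase. RNA-seq and ATAC-seq were each done on 18 libraries, 2 in each of 9 groups, and the 6 controls of the 3 times were pooled. The same pooling was used by the authors.

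The circadian clock is a feedback loop of transcription that runs in most cells. A heterodimer of CLOCK, or its paralog NPAS2, with BMAL1 (the product of Arntl) binds E-boxes and drives transcription of the Per and Cry genes, whose products return to the nucleus and repress that heterodimer. A second loop runs through the nuclear receptors REV-ERBα and REV-ERBβ, encoded by Nr1d1 and Nr1d2, which repress Arntl at sites where the ROR receptors activate it. DBP is an output activator that binds D-boxes, and BHLHE40 and CIART repress the CLOCK-BMAL1 heterodimer. Per1 and Per2 are also known in neurons as genes that can be induced by light, calcium or cAMP through CREB, which binds the CRE.

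RNA libraries held 8508452 to 36699187 reads (median 11558674) and ATAC libraries 1241829 to 6236439 reads in peaks (median 3553183). Replicates differed by more than sampling noise in every group, with a chi-square per degree of freedom of 2.44 to 39.6 in RNA, highest for KCl at 6 h, and 2.06 to 2.58 in ATAC. The RNA values are read counts that the authors divided by a size factor per library, called normalised counts here. Markers of neurons were abundant in controls, with Map2 at a mean of 23811 normalised counts and Tubb3 at 15792. Astrocyte and radial glia markers summed to 15842 to 18334 over 5 genes, markers of dividing cells to 3352 to 5730 over 2 genes and oligodendrocyte lineage markers to 5632 to 6065 over 4 genes. Microglial markers summed to 63 to 84 over 3 genes and endothelial markers to 8 to 14 over 2 genes (means of 0.16 for Cldn5 and 9.9 for Pecam1). In such unsorted cultures a lower value can reflect fewer cells of a type or less RNA per cell, which cannot be told apart.

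Changes below are log2 fold changes against the 6 controls, ± the standard error (SE), on the log2(normalised count + 1) scale. Adding 1 makes the change of a low gene look smaller than it is. They come from limma fitted to all 16209 genes with a mean of at least 10. All 10 clock genes passed that filter. A gene is called changed at a Benjamini-Hochberg adjusted p below 0.1 over all genes tested, the threshold of the study. The p-values measure the spread between cultures of this 1 experiment. BDNF and KCl were compared with the same 6 controls, so the values of the stimuli are given side by side and the stimuli were also compared with each other directly.

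In silenced controls the clock genes were expressed at moderate levels. Per kilobase of exon, Cry2 had the highest control mean (104.6 normalised counts per kb), followed by Cry1 (71.3), Nr1d2 (61.9), Per1 (55.4) and Per2 (49.3). Bhlhe40 (41.8), Nr1d1 (37.0), Dbp (24.9), Per3 (20.3) and Ciart (11.7) came below them. Over the 6 controls the coefficient of variation was 1.9% for Nr1d2 and 5.8 to 7.3% for the Per genes, the Cry genes and Bhlhe40. It was wider for the less abundant Dbp (11.7%), Nr1d1 (15.5%) and Ciart (24.8%).

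Silenced cultures showed no drift that the tests called. Controls of 6 h and of 10 h were each set against controls of 1 h, and limma called 0 of the 10 clock genes and 0% of all genes in both, as did edgeR and DESeq2 on the recovered reads. At an unadjusted p below 0.05, limma, edgeR and DESeq2 each gave 0 of 10 clock genes in both comparisons, against 164 and 181 of all genes with limma. Without any drift, a share near 0.05 of the 16209 genes would fall below that p. Both limma counts were smaller than that, so the test was conservative and 0 of 10 cannot decide whether the clock genes drifted. With 2 cultures at each time, a drift smaller than the spread between cultures would not have been detected.

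**Figure D1:**
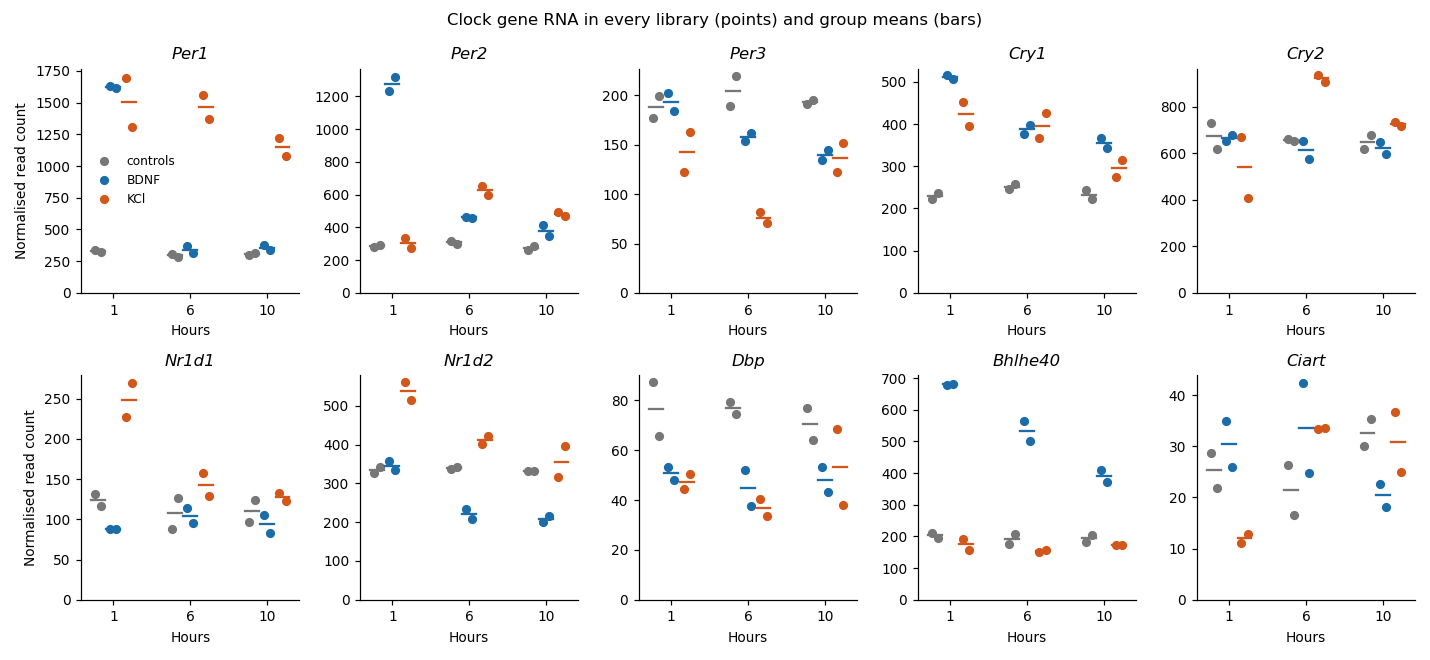
Normalised read count (vertical axis, starting at 0) of each clock gene at 1, 6 and 10 h (horizontal axis) in every library; points are libraries (2 per group; controls in grey, BDNF in blue, KCl in orange) and short bars are group means. Per1 stayed above 1000 counts at all 3 times of KCl but only at 1 h of BDNF, and Bhlhe40 was raised at all 3 times of BDNF but not with KCl.

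Per1, Per2 and Per3 encode the PERIOD proteins, which carry CRY proteins and kinases into the nucleus as part of the repressor complex. Per1 and Per2 rose with BDNF within 1 h. With KCl, Per1 was raised at all 3 times and Per2 only at the later times. Per3 did not rise in any group, and its level fell with KCl and at the later times of BDNF. DNA around Per1 and Per3 is shown here because the 3 genes differ in their responses and 2 kinds of element known to act on Per genes, E-boxes and CREs, lie in accessible chromatin of Per1. The Per1 promoter peak and the Per1 intron peak are ATAC peaks at chr11:69094678-69095326 and chr11:69097037-69097270, of which the central 300 bases are given (chr11:69094853-69095152 and chr11:69097004-69097303, mm10, plus strand). The Per3 promoter is the RefSeq window from 250 bases before to 50 after the start, on the minus strand of chr4:151044616-151044915 (GRCm38.p6). Capitals mark E-boxes (CACGTG) in the Per1 promoter peak, the palindromic CRE (TGACGTCA) in the Per1 intron peak, and D-boxes (TTATGTAA) in the Per3 promoter.
Per1 promoter peak: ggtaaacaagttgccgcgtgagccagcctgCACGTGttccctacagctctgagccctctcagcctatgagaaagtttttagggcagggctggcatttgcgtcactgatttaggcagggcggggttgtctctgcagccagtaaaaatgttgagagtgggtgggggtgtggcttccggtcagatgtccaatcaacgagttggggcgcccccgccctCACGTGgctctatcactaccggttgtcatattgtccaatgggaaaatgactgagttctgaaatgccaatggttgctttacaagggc
Per1 intron peak: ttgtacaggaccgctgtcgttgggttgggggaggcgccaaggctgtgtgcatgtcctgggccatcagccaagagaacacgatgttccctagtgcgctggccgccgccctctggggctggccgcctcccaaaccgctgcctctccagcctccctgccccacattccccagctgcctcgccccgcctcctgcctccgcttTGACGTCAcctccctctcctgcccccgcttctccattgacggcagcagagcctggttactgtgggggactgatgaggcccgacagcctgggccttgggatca
Per3 promoter: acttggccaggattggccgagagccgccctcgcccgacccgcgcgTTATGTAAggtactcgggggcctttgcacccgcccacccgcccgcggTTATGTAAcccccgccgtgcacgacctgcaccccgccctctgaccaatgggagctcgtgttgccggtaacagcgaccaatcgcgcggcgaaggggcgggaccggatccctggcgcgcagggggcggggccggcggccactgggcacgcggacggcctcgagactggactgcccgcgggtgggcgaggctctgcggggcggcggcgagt

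Searched on both strands, the Per1 promoter peak held 2 E-boxes, at bases 31 to 36 and 215 to 220 of the printed window, and 4.91% of the 58177 peak centres of the table held at least 1. The CRE of the Per1 intron peak lay at bases 199 to 206, and 0.98% of peak centres held that full site. The shorter core TGACG, which the full CRE contains on both strands, is not marked. RefSeq places 2 further Per1 starts downstream, and the window of the first of them (chr11:69098699-69098998) held an E-box from -166 to -161. The Per3 window held 2 D-boxes, from -205 to -198 and from -158 to -151 before the start, where 0.938% of the 32851 RefSeq promoter windows held any. A D-box was not particular to Per3. The centre of the Per2 promoter peak (chr1:91459058-91459809) also held one, TTACATAA at bases 159 to 166, where 1.26% of peak centres did. It held AACGTG, the reverse complement of CACGTT, at bases 31 to 36 as well. These matches are descriptions of the sequence and not evidence of binding.

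Per1 RNA was between 286 and 341 (median 312) normalised counts in the 6 controls. The BDNF libraries had 1627 and 1613 (1 h), 366 and 316 (6 h) and then 374 and 336 (10 h). Both BDNF libraries of 1 h lay far above all controls, while at 6 and 10 h 1 of the 2 libraries lay above and the other within the control range. The change was 2.37 ± 0.094 (limma adjusted p = 1.12e-14) at 1 h, a 5.18-fold rise, and the values of 6 and 10 h were 0.12 ± 0.094 and 0.19 ± 0.094, not called (adjusted p = 0.322 and 0.137). Under a fit with the library letter as a block, the value of 10 h had an adjusted p of 0.0788, and without control library A of 1 h it was 0.21 (0.0867).
The KCl libraries had 1698 and 1304 (1 h), 1561 and 1371 (6 h) and then 1217 and 1077 (10 h). All 6 were above every control, without overlap. The changes were 2.25 ± 0.094, 2.23 ± 0.094 and 1.87 ± 0.094 at 1, 6 and 10 h, with limma adjusted p of 2e-14, 4.27e-14 and 1.11e-12. The rise of Per1 at 1 h was not called different between BDNF and KCl (0.12 ± 0.12, limma adjusted p = 0.441), although without KCl library A the difference was 0.31 and called (0.0625). At 6 and 10 h Per1 was lower with BDNF than with KCl, by 2.1 and 1.69 on the log2 scale (adjusted p = 6.37e-12 and 2.77e-10).

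Per2 RNA was between 259.5 and 317 (median 287) in controls. The BDNF libraries had 1235 and 1317 (1 h), 465 and 458 (6 h) and then 411 and 348 (10 h), and all 6 lay above the controls. The rise was 2.14 ± 0.090 (limma adjusted p = 2.4e-14) at 1 h, or 4.41-fold, and 0.68 ± 0.090 and 0.39 ± 0.090 at 6 and 10 h (adjusted p = 3.9e-06 and 0.00199).
With KCl the order in time was another. The KCl libraries had 335 and 276 (1 h), 653 and 598 (6 h) and then 494 and 468 (10 h), so that 1 of the 2 libraries of 1 h lay within the control range and the 4 later ones above it. Per2 changed by 0.08 ± 0.090 (limma adjusted p = 0.511) at 1 h, which is not called, and rose by 1.11 ± 0.090 and 0.74 ± 0.090 at 6 and 10 h (adjusted p = 8.14e-10 and 6.9e-07). The direct comparison gave 2.07 ± 0.11 (limma adjusted p = 2.92e-12) at 1 h, BDNF above KCl, and -0.44 ± 0.11 and -0.34 ± 0.11 at 6 and 10 h, BDNF below KCl (adjusted p = 0.00217 and 0.0167). Without BDNF library B the difference of 10 h was -0.22, with an adjusted p of 0.216.
Some markers of neuron types were higher in groups where Per1 or Per2 rose, and also in groups where 1 of these genes did not. The 3 inhibitory neuron markers (Gad1, Gad2 and Slc32a1) summed to 4593 to 5971 in controls and lay above that range in all 6 stimulated groups. Their sums were 8519 to 8756 with BDNF at 1 h and 8835 to 9808 with KCl at 6 h. With BDNF at 6 and 10 h, where Per1 was not called, they were 7062 to 7805 and 6913 to 7606. With KCl at 1 h, where Per2 was not called, they were 6093 to 7659. The 2 excitatory markers (Slc17a7 and Slc17a6) summed to 845 to 1032 in controls and to 1233 to 1335 with BDNF at 1 h, and overlapped the controls in KCl at 1 h alone (964 to 1129). The sum of the 5 general neuron markers was not above its control range in any group. The part of these markers in the Per1 and Per2 values was not tested.

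Per3, the PERIOD paralog whose loss leaves behavioural rhythms largely intact, moved in the other direction. Its RNA was between 177 and 219.8 (median 193) in controls, and 202 and 185 (1 h), 154 and 162 (6 h) and then 134 and 144 (10 h) with BDNF. The libraries of 6 and 10 h lay below all controls. The change was -0.01 ± 0.12 at 1 h (adjusted p = 0.955), -0.30 ± 0.12 at 6 h (0.0596) and -0.48 ± 0.12 at 10 h (0.0047). The call at 6 h was lost without either BDNF library (-0.27 and -0.34, adjusted p = 0.284 and 0.164) and without control library B of 6 h (-0.27, 0.107).
With KCl, Per3 was 122 and 162 (1 h), 81.6 and 70.6 (6 h) and then 122 and 151 (10 h). All 6 libraries lay below the controls, and the 2 libraries of 6 h were the lowest of the series. The falls were 0.46, 1.35 and 0.52 on the log2 scale (limma adjusted p = 0.00333, 5.09e-09 and 0.00139), the middle one a 2.55-fold fall. Without KCl library A, the change of 1 h was -0.26 and not called (adjusted p = 0.181). Per3 was higher with BDNF than with KCl at 1 and 6 h (0.45 ± 0.15 and 1.05 ± 0.15, adjusted p = 0.0212 and 5.38e-06), and at 10 h the difference was 0.04 ± 0.15 (adjusted p = 0.874). The difference of 1 h was lost without KCl library A (0.25, 0.284) or BDNF library A (0.39, 0.144).
Per3 lies within Camta1 on the same strand, so counting by strand would not by itself separate the reads of these genes. Camta1 had a mean of 3047 normalised counts over the 18 libraries, where Per3 had 159. Camta1 changed by 0.25, -0.49 and -0.35 with BDNF and by 0.13, -0.32 and -0.41 with KCl, all 6 called. The part of Camta1 reads in the Per3 values was not tested. Markers of astrocytes and radial glia and of dividing cells were lower in some of the same groups. With KCl at 6 h their sums were 12185 to 14852 and 2328 to 2400 normalised counts, both below their control ranges. With BDNF at 6 h they were 14989 to 15288 and 2908 to 3188, and with KCl at 10 h 12981 to 13697 and 2287 to 2483, again both below. With BDNF at 10 h the glial sum overlapped its controls (15687 to 16485) and the dividing cell sum was below them (3066 to 3114). At 1 h neither sum was below its control range with BDNF or KCl. Their part in the Per3 values was not tested.

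Cry1 and Cry2 encode the cryptochromes, the strongest repressors of the loop. Cry1 rose with both stimuli at all 3 times, and Cry2 moved little. The Cry1 promoter is shown because Cry1 was the clock gene called higher in all 6 comparisons, as the RefSeq window on the minus strand of chr10:85185005-85185304 (GRCm38.p6), with an E-box (CACGTG, from -60 to -55) and an E-box variant (AACGTG, the reverse complement of CACGTT, from -79 to -74) in capitals.
Cry1 promoter: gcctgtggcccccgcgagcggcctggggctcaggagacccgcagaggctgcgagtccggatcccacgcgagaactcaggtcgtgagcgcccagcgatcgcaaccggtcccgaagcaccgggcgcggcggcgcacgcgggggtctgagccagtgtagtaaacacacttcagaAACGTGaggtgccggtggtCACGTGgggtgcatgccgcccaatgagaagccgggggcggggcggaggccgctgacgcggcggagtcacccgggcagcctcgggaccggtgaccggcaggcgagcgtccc

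The E-box was found in 7.15% and the variant in 4.685% of all RefSeq promoter windows. Cry1 RNA was between 222 and 257 (median 240.4) in controls. It was 517 and 508 (1 h), 377 and 399 (6 h) and then 367 and 344 (10 h) with BDNF. With KCl it was 452 and 396 (1 h), 367 and 426 (6 h) and then 275 and 316 (10 h). All 12 stimulated libraries lay above the controls, as did the inhibitory marker sum in each of these groups, whose part in the Cry1 values was not tested. The rises were 1.10 ± 0.089, 0.70 ± 0.089 and 0.58 ± 0.089 with BDNF, largest at 1 h (2.15-fold, limma adjusted p = 2.17e-09, 2.21e-06 and 3.91e-05). With KCl they were 0.83 ± 0.089, 0.73 ± 0.089 and 0.31 ± 0.089 (adjusted p = 9.97e-08, 3.94e-07 and 0.00661). The last of these was 0.21 and no longer called without KCl library B (adjusted p = 0.165). Cry1 was somewhat higher with BDNF than with KCl at 1 h (0.28 ± 0.11, adjusted p = 0.0527) and 10 h (0.27 ± 0.11, adjusted p = 0.0561), but each of these calls was lost when 1 of several libraries was left out. At 1 h these were KCl library B (0.18, adjusted p = 0.336), BDNF library A (0.26, 0.184) and BDNF library B (0.29, 0.133). At 10 h they were KCl library A (0.17, 0.341) and BDNF library A (0.22, 0.236). At 6 h the Cry1 difference was -0.03 ± 0.11 (adjusted p = 0.857).

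Cry2, the most abundant of the 10 genes, was between 619 and 731 (median 658) in controls and 654 and 679 (1 h), 654 and 578 (6 h) and then 649.9 and 599 (10 h) with BDNF. The BDNF libraries overlapped the controls at each time, and the changes were 0.01 ± 0.12, -0.10 ± 0.12 and -0.08 ± 0.12, none called (adjusted p = 0.943, 0.534 and 0.635). With KCl the values were 670.5 and 409.5 (1 h), 939 and 908 (6 h) and then 736 and 718 (10 h). Both libraries of 6 h stood above the controls, with a rise of 0.48 ± 0.12 (limma adjusted p = 0.0014). At 1 h the 2 KCl libraries were far apart, and the call of -0.33 ± 0.12 (adjusted p = 0.0247) rested on library B, without which the change was 0.02 (adjusted p = 0.874). At 10 h the change was 0.14 ± 0.12 (adjusted p = 0.343). Cry2 was lower with BDNF than with KCl at 6 h, by 0.59 on the log2 scale (adjusted p = 0.00207). The difference of 1 h, 0.35 ± 0.14 (adjusted p = 0.0671), became -0.01 (0.965) without KCl library B and was lost without BDNF library A (0.37, 0.150) or B (0.32, 0.216). The oligodendrocyte lineage marker sum was below its control range with KCl at 1 h (4175 to 4721) and above it at 6 h (6791 to 7138). Of its 4 genes, 2 were called lower at 1 h, and 2 higher and 1 lower at 6 h. The part of these markers in the Cry2 values was not tested.

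Nr1d1 and Nr1d2 encode the REV-ERB receptors, heme-binding repressors that link the clock to metabolism. Both rose with KCl at 1 h, and neither rose with BDNF. The Nr1d1 intron peak (chr11:98773772-98774203, 1.35 kb after the start of the gene, its central 300 bases being chr11:98773838-98774137, mm10, plus strand) is shown because its accessibility was lower at 1 h of BDNF, and because it holds 2 E-boxes (bases 22 to 27 and 37 to 42) and a D-box (TTATGTAA, bases 243 to 250), in capitals.
Nr1d1 intron peak: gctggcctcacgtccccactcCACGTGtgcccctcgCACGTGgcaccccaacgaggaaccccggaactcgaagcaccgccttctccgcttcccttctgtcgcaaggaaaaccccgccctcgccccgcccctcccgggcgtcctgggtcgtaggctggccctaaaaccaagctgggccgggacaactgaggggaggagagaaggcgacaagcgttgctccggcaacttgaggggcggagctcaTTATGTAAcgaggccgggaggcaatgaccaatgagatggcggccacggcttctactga

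A D-box of this form was found in 1.26% of all peak centres. Nr1d1 RNA was between 88.1 and 132 (median 119.9) in controls, 88.2 and 87.8 (1 h), 114 and 95.2 (6 h) and then 105 and 82.5 (10 h) with BDNF, and 227 and 269.5 (1 h), 157 and 128 (6 h) and then 133 and 123 (10 h) with KCl. The KCl libraries of 1 h were clearly above the controls, and every other group overlapped or bordered the control range. The change with KCl was 1.13 ± 0.15 (limma adjusted p = 2.53e-06) at 1 h, a 2.19-fold rise. It was 0.33 ± 0.15 (adjusted p = 0.0632) at 6 h, a call lost without KCl library A (0.19, 0.430), control library A of 10 h (0.29, 0.111) or control library A of 6 h (0.26, 0.121), and 0.18 ± 0.15 (adjusted p = 0.331) at 10 h. With BDNF it was -0.35 ± 0.15 (adjusted p = 0.0826) at 1 h, a call that was lost without either BDNF library (-0.36 and -0.35, adjusted p = 0.274 and 0.254). It was lost as well without either control of 1 h (-0.31 and -0.34, 0.134 and 0.112) or without library B of the 6 h or 10 h controls (-0.32 and -0.33, 0.134 and 0.130). At 6 and 10 h of BDNF the changes were -0.11 ± 0.15 and -0.27 ± 0.15, not called (adjusted p = 0.6 and 0.183), although without control library A of 6 h the latter was -0.34 and called (0.0802). The direct comparison gave -1.48 ± 0.19 (limma adjusted p = 1.65e-06) at 1 h, BDNF below KCl. At 6 and 10 h it gave -0.45 ± 0.19 and -0.46 ± 0.19 (adjusted p = 0.0504 and 0.0603). The first was lost without KCl library A (-0.30, 0.272) or BDNF library B (-0.32, 0.280), and the second without KCl library A (-0.40, 0.207), KCl library B (-0.51, 0.112) or BDNF library B (-0.28, 0.386). The 3′ end of Nr1d1 overlaps Thra on the other strand. Thra had a mean of 7333 normalised counts over the 18 libraries, where Nr1d1 had 127. Thra changed by 0.44 with KCl at 1 h (limma adjusted p = 2.76e-05). Reads of the overlap cannot be told apart without strand.

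Nr1d2 had the tightest controls of the 10 genes, between 326 and 342 (median 334). With BDNF it was 357 and 334 (1 h), 233 and 209 (6 h) and then 200.1 and 216 (10 h). With KCl it was 561 and 515 (1 h), 401 and 422 (6 h) and then 317 and 396 (10 h). The BDNF libraries of 6 and 10 h lay below all controls and the KCl libraries of 1 and 6 h above them. With BDNF the change was 0.04 ± 0.087 at 1 h (adjusted p = 0.742), followed by falls of 0.60 at 6 h and 0.69 at 10 h on the log2 scale (limma adjusted p = 1.22e-05 and 3.21e-06). With KCl, Nr1d2 rose by 0.68 ± 0.087 (limma adjusted p = 1.08e-06) at 1 h and by 0.30 ± 0.087 (limma adjusted p = 0.00523) at 6 h, and had 0.08 ± 0.087 (adjusted p = 0.459) at 10 h, or 0.24 (0.0637) without KCl library A. Nr1d2 was lower with BDNF than with KCl at all 3 times, by 0.64, 0.90 and 0.77 (adjusted p = 5.61e-05, 4.29e-07 and 6.78e-06). The astrocyte and radial glia marker sum was below its control range with BDNF at 6 h and overlapped it at 10 h (15687 to 16485). With KCl, where Nr1d2 was not lower, that sum was further below its control range, at 12185 to 14852 (6 h) and 12981 to 13697 (10 h). The inhibitory marker sum was above its controls at all 3 times of KCl and also at all 3 times of BDNF. Their part in the Nr1d1 and Nr1d2 values was not tested.

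Dbp encodes a PAR bZIP transcription factor that binds D-boxes of output genes. It was the clock gene called lower in all 6 comparisons. The 2 Dbp peaks whose accessibility changed are shown here by their central 300 bases (chr7:45700687-45700986 and chr7:45704141-45704440, mm10, plus strand). The search for E-boxes (CACGTG and CACGTT), CREs, D-boxes (TTATGTAA and TTACGTAA), REV-ERB and ROR cores (TAGGTCA), AP-1 sites (TGAGTCA) and EGR sites (GCGTGGGCG) gave no match in either window, so no base is in capitals.
Dbp peak at -4.3 kb: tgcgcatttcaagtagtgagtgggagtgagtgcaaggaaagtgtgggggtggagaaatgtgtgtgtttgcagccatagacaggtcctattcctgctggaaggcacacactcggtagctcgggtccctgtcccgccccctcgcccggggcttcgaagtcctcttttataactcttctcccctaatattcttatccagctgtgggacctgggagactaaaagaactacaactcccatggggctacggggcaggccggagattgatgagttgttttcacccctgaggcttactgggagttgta
Dbp peak at -0.8 kb: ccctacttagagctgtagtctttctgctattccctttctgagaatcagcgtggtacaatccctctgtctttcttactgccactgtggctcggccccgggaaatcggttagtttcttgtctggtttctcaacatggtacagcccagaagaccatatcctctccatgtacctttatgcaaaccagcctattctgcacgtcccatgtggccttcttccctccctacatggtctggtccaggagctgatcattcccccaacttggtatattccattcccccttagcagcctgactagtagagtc

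Dbp RNA was between 64.0 and 87.3 (median 75.8) in controls. It was 53.2 and 48.1 (1 h), 52.2 and 37.5 (6 h) and then 53.1 and 43.1 (10 h) with BDNF. With KCl it was 44.5 and 50.3 (1 h), 40.3 and 33.6 (6 h) and then 68.4 and 38.1 (10 h). All BDNF libraries and 5 of the 6 KCl libraries lay below the controls, the exception being KCl library A of 10 h. The falls were 0.54, 0.73 and 0.62 on the log2 scale with BDNF (SE 0.20, limma adjusted p = 0.0386, 0.00619 and 0.02). With KCl they were 0.64, 0.99 and 0.53 (adjusted p = 0.0107, 0.000181 and 0.0306). The fall with KCl at 6 h, 1.99-fold, kept its call in every alternative at this threshold, and each of the other 5 lost its call without 1 of the stimulated libraries. Without BDNF library A or B of 1 h the change was -0.62 or -0.47 (adjusted p = 0.124 and 0.229), without library B of 6 h -0.50 (0.185) and without library B of 10 h -0.48 (0.240). Without KCl library A of 1 h it was -0.55 (0.112), and without KCl library B of 10 h it was -0.12 (0.726). BDNF and KCl did not differ by the test for Dbp, with differences of 0.10 ± 0.24, 0.26 ± 0.24 and -0.09 ± 0.24 (adjusted p = 0.794, 0.387 and 0.792). Dbp overlaps Sphk2 on the other strand, which had a mean of 330 normalised counts over the 18 libraries, where Dbp had 56.1. Sphk2 changed by -0.58 with KCl at 1 h and by 0.24 and 0.26 at 6 and 10 h, all called, and its BDNF values of -0.04, 0.17 and 0.14 were not called. In the same groups of 6 and 10 h the dividing cell markers were below their control range (2908 to 3188 and 3066 to 3114 with BDNF, 2328 to 2400 and 2287 to 2483 with KCl), and their part in the Dbp values was not tested.

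Bhlhe40 (also known as DEC1) and Ciart (also known as CHRONO) encode repressors of the CLOCK-BMAL1 heterodimer outside the PER-CRY complex. Bhlhe40 rose with BDNF at all 3 times and did not rise with KCl. The Ciart promoter is shown as the RefSeq window with the most E-boxes among the clock genes, 3 (from -116 to -111, -58 to -53 and -44 to -39, in capitals), on the minus strand of chr3:95882179-95882478 (GRCm38.p6).
Ciart promoter: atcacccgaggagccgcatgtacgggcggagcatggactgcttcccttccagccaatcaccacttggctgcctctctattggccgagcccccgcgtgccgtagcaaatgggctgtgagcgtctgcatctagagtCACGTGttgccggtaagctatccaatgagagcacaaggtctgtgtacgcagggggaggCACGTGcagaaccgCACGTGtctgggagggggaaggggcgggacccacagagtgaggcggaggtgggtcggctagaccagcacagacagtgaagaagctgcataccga

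Bhlhe40 RNA was between 177 and 210.1 (median 199.9) in controls and 678 and 682 (1 h), 565 and 501 (6 h) and then 410.3 and 373 (10 h) with BDNF, all above the controls and lower at the later times. The rises were 1.79 ± 0.10, 1.44 ± 0.10 and 0.99 ± 0.10 (limma adjusted p = 1.85e-12, 1.71e-10 and 7.15e-08), the first of them 3.45-fold. With KCl the values were 193 and 158 (1 h), 151 and 157 (6 h) and then 172 and 174 (10 h), of which 1 library of 1 h lay within the control range and the other 5 below it. The change was -0.34 ± 0.10 at 6 h (adjusted p = 0.0037), and -0.17 ± 0.10 and -0.18 ± 0.10 at 1 and 10 h, not called (adjusted p = 0.157 and 0.127). Without KCl library A the change of 1 h was -0.31 and called (0.0446), and without control library A of 6 h that of 10 h was -0.21 and called (0.0826). The sums of inhibitory and excitatory markers were above their controls at all 3 times of BDNF as well as at 6 and 10 h of KCl, and their part in the Bhlhe40 values was not tested. Bhlhe40 was higher with BDNF than with KCl by 1.96 ± 0.12, 1.78 ± 0.12 and 1.17 ± 0.12 at 1, 6 and 10 h (adjusted p = 2e-11, 9.46e-11 and 8.49e-08).

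Ciart was the least abundant of the 10 genes, between 16.6 and 35.4 (median 27.5) in controls. It was 35.0 and 25.9 (1 h), 42.3 and 24.7 (6 h) and then 22.6 and 18.2 (10 h) with BDNF and 11.1 and 12.8 (1 h), 33.4 and 33.6 (6 h) and then 36.7 and 25.0 (10 h) with KCl. Only the 2 KCl libraries of 1 h lay outside the control range without overlap and on the same side, below it. The fall was 1.05 on the log2 scale (SE 0.27, limma adjusted p = 0.00261). BDNF gave 0.22 ± 0.27, 0.32 ± 0.27 and -0.33 ± 0.27 and KCl at 6 and 10 h 0.36 ± 0.27 and 0.23 ± 0.27, with adjusted p of 0.247 or more. BDNF and KCl differed at 1 h (1.27 ± 0.33, limma adjusted p = 0.00414). Ciart lies within C920021L13Rik, a gene on the other strand with a mean of 6.58 normalised counts, which was below the filter. The part of its reads in the Ciart values was not tested. The sum of the 4 oligodendrocyte lineage markers was below its control range (5632 to 6065) with KCl at 1 h (4175 to 4721). It was above that range at 6 h (6791 to 7138) and 10 h (6413 to 7048), where Ciart was not called. Of these 4 markers, 2 were called lower at 1 h, 2 higher and 1 lower at 6 h, and 1 higher at 10 h. Their part in the Ciart values was not tested.

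Counted over the 10 genes, BDNF raised 4, 3 and 3 at 1, 6 and 10 h, where 21.3%, 22.1% and 21.1% of all genes were called higher. It lowered 2, 3 and 3, where 19.0%, 21.1% and 19.5% of all genes were called lower. KCl raised 4, 6 and 3 of the 10, beside 26.5%, 33.4% and 29.0% of all genes, and lowered 4, 3 and 2, beside 28.2%, 33.1% and 28.2%. The median change over the 10 genes was 0.13, 0.01 and -0.18 with BDNF and -0.05, 0.35 and 0.16 with KCl, and the medians over all genes lay between -0.01 and 0.01. The share of clock genes called lower with KCl at 6 and 10 h was no higher than that of all genes. Some of these counts rested on single libraries. With BDNF at 1 h the 2 lower calls, Nr1d1 and Dbp, became 0 without either BDNF library and 1 without either control of 1 h or library B of the 6 h or 10 h controls. With BDNF at 6 h the 3 lower calls became 1 without BDNF library B, and with KCl at 10 h the 3 higher and 2 lower calls became 2 and 1 without KCl library B. Of the 40 calls against controls, 29 kept their direction and stayed below the threshold in all 17 alternatives.

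The stimuli were then compared with each other. BDNF was higher than KCl for 6 genes and lower for 2 at 1 h (Per2, Per3, Cry1, Cry2, Bhlhe40 and Ciart against Nr1d1 and Nr1d2), beside 24.6% and 18.2% of all genes. At 6 h it was higher for Per3 and Bhlhe40 and lower for Per1, Per2, Cry2, Nr1d1 and Nr1d2, beside 29.6% and 27.8% of all genes. At 10 h it was higher for Cry1 and Bhlhe40 and lower for Per1, Per2, Nr1d1 and Nr1d2, beside 23.1% and 21.8%. The median difference over the 10 genes was 0.31, -0.24 and -0.28, where all genes had medians of 0.01, 0.0 and 0.0. Per2, Nr1d2 and Bhlhe40 were called at each of the 3 times, and Dbp at none. Without BDNF library A of 1 h, the 6 higher genes at 1 h became 3. At 10 h the 2 higher genes became 1 without BDNF or KCl library A, and the 4 lower genes became 2 without BDNF library B.

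**Figure D2:**
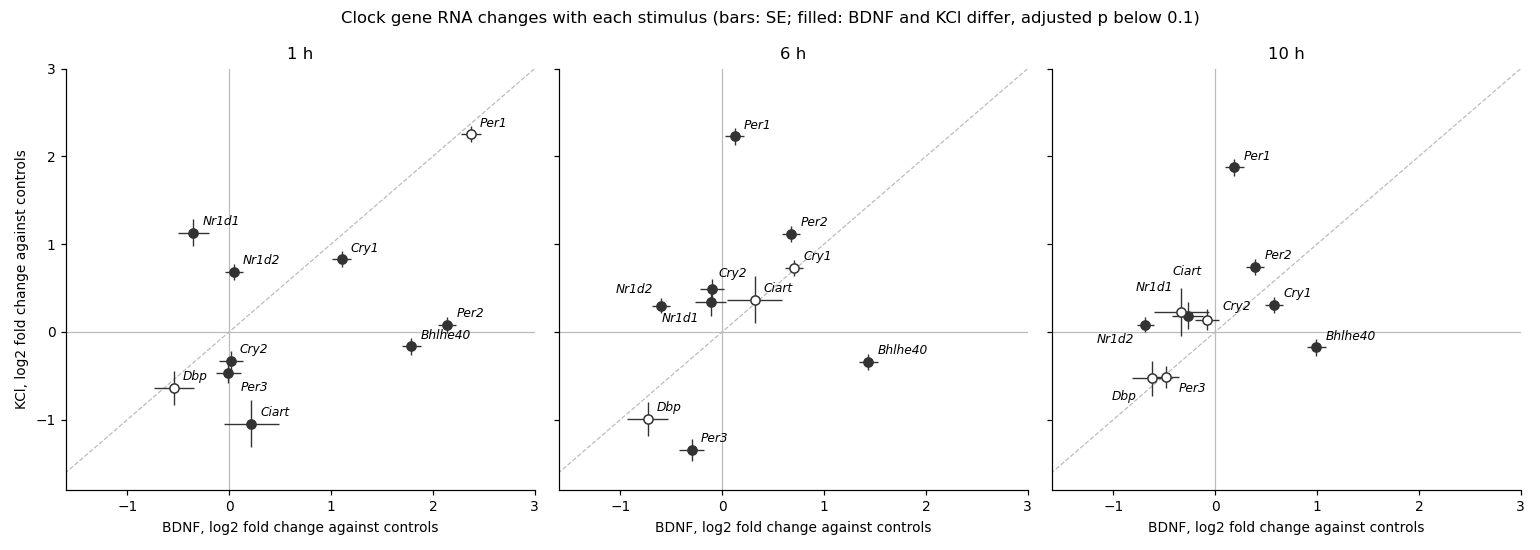
Log2 fold change against the 6 controls with KCl (vertical axis) and with BDNF (horizontal axis) for each clock gene at 1, 6 and 10 h, with SE bars; filled points mark genes for which BDNF and KCl differed (limma adjusted p below 0.1) and the dashed line marks equal change. Per2 and Bhlhe40 lie far to the right of the line at 1 h (differences of 2.07 and 1.96), and Per1 lies far above it at 6 and 10 h.

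The course in time was tested as the change of the stimulus effect between times, each time against its own 2 controls. From 1 to 6 h of BDNF, 4 of the 10 genes changed, all downward, where 15.9% of all genes did. Per1 fell by 2.09 ± 0.17 (limma adjusted p = 1.95e-07), Per2 by 1.57 (adjusted p = 2.51e-06), Nr1d2 by 0.66 (0.0108) and Cry1 by 0.53 (0.0372). The Cry1 call was lost without BDNF library A of 1 h or of 6 h (-0.52 and -0.49, adjusted p = 0.117 and 0.133), control library A of 1 h (-0.49, 0.125) or control library B of 6 h (-0.50, 0.118). From 6 to 10 h of BDNF, limma called 0 of 10 genes and 0% of all genes, with 2 of 10 and 490 of all at an unadjusted p below 0.05. The edgeR test on recovered reads also called 0 of 10 and 0 of all, and DESeq2 called 0 of 10 and 1 of all.

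From 1 to 6 h of KCl, 5 of 10 genes changed, beside 42.4% of all genes. Per2 (0.93 ± 0.16, adjusted p = 0.00017), Cry2 (0.85 ± 0.22, 0.00622) and Ciart (1.66 ± 0.45, 0.00792) moved up. Per3 (-1.0 ± 0.22, 0.00195) and Nr1d2 (-0.40 ± 0.16, 0.0575) moved down, and the Nr1d2 call was lost without library A of the 1 h controls, of KCl at 1 h or of KCl at 6 h (-0.37, -0.34 and -0.37, 0.140, 0.151 and 0.110) or without control library A or B of 6 h (-0.41 and -0.40, 0.105 and 0.127). Nr1d1 had -0.57 ± 0.27 (adjusted p = 0.115), not called, and was called without library A of the 6 h controls (-0.83, 0.0346), of KCl at 1 h (-0.69, 0.0943) or of KCl at 6 h (-0.71, 0.0639). From 6 to 10 h, Per3 alone changed, upward by 0.91 ± 0.22 (limma adjusted p = 0.0462), beside 4.08% of all genes, and this call was lost without either control library of 10 h (0.89 and 0.93, 0.148 and 0.105), control library B of 6 h (0.80, 0.182) or KCl library B of 6 h (0.81, 0.113).

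Group means spanned 5.45-fold for Per1, 4.70-fold for Per2 and 4.40-fold for Bhlhe40 over the 9 groups. The spans were 2.82-fold for Nr1d1, 2.80-fold for Ciart, 2.69-fold for Per3, 2.59-fold for Nr1d2, 2.23-fold for Cry1, 2.08-fold for Dbp and 1.71-fold for Cry2. When the 9 groups of a gene were put in order of their means, neighbouring groups had overlapping libraries in 3 of 8 steps for Per2 and Cry1, 4 for Bhlhe40, 5 for Per1 and Nr1d2, and 6 for Per3. The same was true of 7 of 8 steps for Cry2, Nr1d1 and Ciart and of all 8 for Dbp. The highest group mean was that of BDNF at 1 h for Per1, Per2, Cry1 and Bhlhe40 and that of KCl at 1 h for Nr1d1 and Nr1d2.

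Genes with the most similar profile over the 18 libraries were found by Pearson's r of log2 values, as a description over libraries that share groups and depth. Per1 was followed most closely by Hdac5 (0.989), Chrm4 (0.979) and Mef2d (0.976). Per2 was followed by Sgk1 (0.984), Stk40 (0.982) and Upf1 (0.980), and Bhlhe40 by Eif1a (0.970), Uba2 (0.967) and Inafm2 (0.96). Cry1 was nearest to Btbd10 (0.966), Plk2 (0.950) and Sertad1 (0.942). Nr1d2 was nearest to Picalm (0.968), Gm9791 (0.958) and Stmn1 (0.953), and Per3 to Gm13111 (0.942), Prdm9 (0.940) and Slf2 (0.934). The likeness was lower for Nr1d1 (Rhof, Dapk1 and Tob2, 0.916, 0.913 and 0.91), Dbp (Neurl1b, Htr1a and Cyth1, 0.886, 0.885 and 0.882) and Ciart (Zfp526, Ccdc94 and Zfp27, 0.852, 0.843 and 0.818).

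Other genes of the pathway were taken from a list of 25, of which 23 passed the filter. Clock, Arntl and Npas2, which encode the activators, were called higher in some of the groups and lower in none. Clock rose by 0.27 ± 0.077 (limma adjusted p = 0.00854) with BDNF at 1 h and by 0.61 ± 0.077 and 0.19 ± 0.077 with KCl at 1 and 6 h (adjusted p = 8.97e-07 and 0.0378). Arntl, which encodes BMAL1, rose by 0.37 ± 0.094 and 0.41 ± 0.094 at 6 and 10 h of BDNF and by 0.34 ± 0.094 and 0.22 ± 0.094 at the same times of KCl (adjusted p = 0.00407, 0.00206, 0.00375 and 0.0545). Npas2, the neuronal paralog of Clock, rose by 1.22 ± 0.20 (limma adjusted p = 6.78e-05) with BDNF at 6 h and by 0.56 ± 0.20, 1.39 ± 0.20 and 1.43 ± 0.20 with KCl (adjusted p = 0.0265, 4.68e-06 and 5.86e-06).

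Other genes of the list act on the outputs or on protein stability. Nfil3, a repressor at D-boxes that opposes DBP, rose by 2.62 ± 0.10, 2.27 ± 0.10 and 1.90 ± 0.10 with KCl (adjusted p = 1.96e-15, 4.27e-14 and 1.22e-12). With BDNF it rose by 1.07 ± 0.10 at 1 h and then fell by 0.44 and 0.48 (adjusted p = 1.26e-08, 0.000992 and 0.000636). Bhlhe41, the paralog of Bhlhe40, fell by 1.86 with KCl at 1 h (SE 0.18, adjusted p = 1.88e-08) and rose by 0.51 ± 0.18 (adjusted p = 0.0331) with BDNF at 1 h. Usp2, a deubiquitinase of clock proteins, rose by 1.01 ± 0.20, 1.24 ± 0.20 and 0.95 ± 0.20 with KCl (adjusted p = 0.000299, 2.22e-05 and 0.000566) and fell by 0.64 and 0.84 with BDNF at 6 and 10 h (0.0164 and 0.00318). Timeless, known for its part in DNA replication as well as for binding clock proteins, fell by 0.72, 1.94 and 1.05 with KCl (adjusted p = 1.86e-05, 6.11e-12 and 1.42e-07). At 6 and 10 h of KCl both dividing cell markers, Mki67 and Top2a, were called lower. Their part in the Timeless values was not tested. Fbxl21, a ubiquitin ligase subunit for cryptochromes, fell by 1.28 with KCl at 6 h (adjusted p = 0.000617).

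Of the 23 genes, 9 were called higher at 1 h of BDNF, 8 at 6 h and 4 at 10 h (21.3%, 22.1% and 21.1% of all genes), and 3, 7 and 5 lower (19.0%, 21.1% and 19.5% of all genes). KCl gave 12, 13 and 7 higher, beside 26.5%, 33.4% and 29.0% of all genes, and 3, 6 and 4 lower, beside 28.2%, 33.1% and 28.2%. Their median change was 0.10, 0.02 and 0.03 with BDNF and 0.30, 0.19 and 0.0 with KCl. In the direct comparison at 1, 6 and 10 h, BDNF was higher than KCl for 5, 6 and 5 of them (24.6%, 29.6% and 23.1% of all genes) and lower for 13, 9 and 7 (18.2%, 27.8% and 21.8%).

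**Figure D3:**
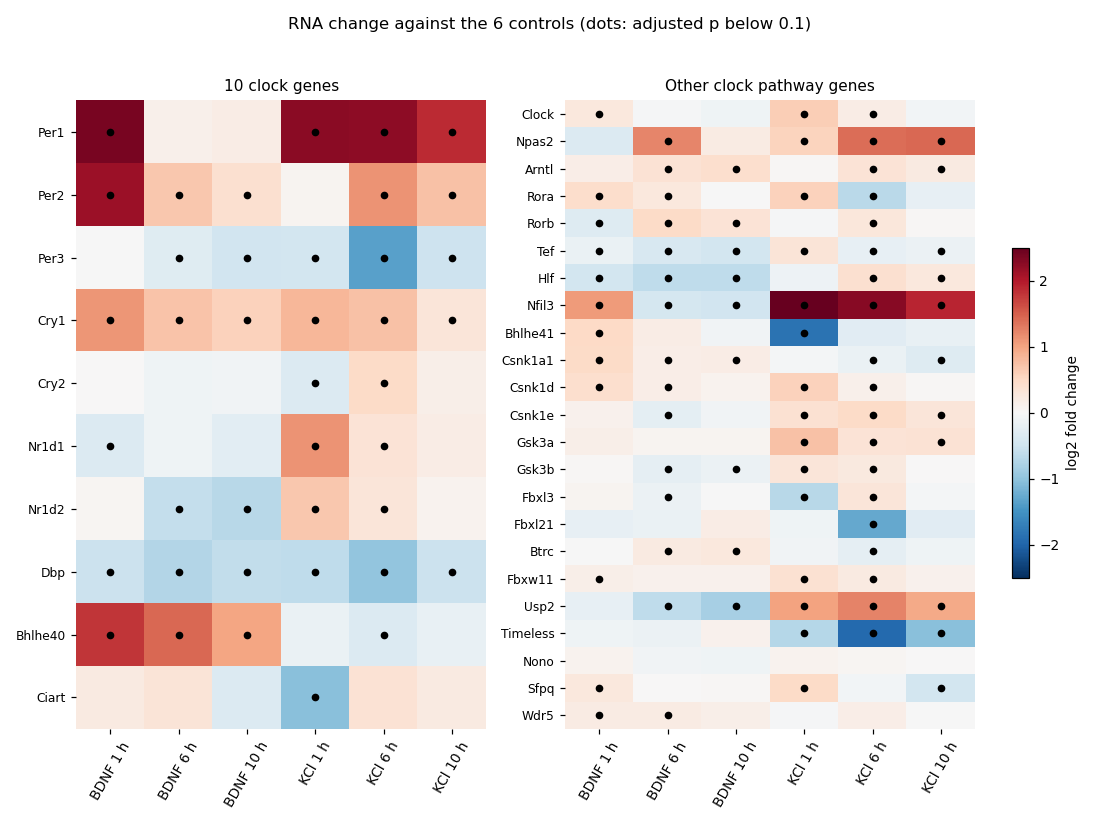
Log2 fold change of RNA against the 6 controls (colour, red higher and blue lower) for the 10 clock genes (left) and the 23 other pathway genes tested (right), with 1 column for each stimulus and time; dots mark a limma adjusted p below 0.1. Per1 and Nfil3 are the reddest rows with KCl, and the Dbp row is blue in all 6 columns.

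Accessibility was measured by ATAC-seq, in which a transposase cuts open chromatin, as read counts in peaks. Of the 58177 peaks, 34 overlapped a clock gene or lay within 10 kb of either end, and 33 of them had a mean count of at least 10 and were tested with edgeR's quasi-likelihood test over 56383 peaks, with Benjamini-Hochberg adjustment and the same threshold. Values below are read counts scaled by LOESS. Each of the 10 genes had a peak over an annotated start. Of the 33 peaks, 11 were called in at least 1 comparison, and the share called at each time was near that of all peaks or below it. The test called 6 with BDNF at 1 h (3 higher, 3 lower), 0 at 6 h and 1 higher at 10 h, where 17.3%, 10.6% and 9.36% of all peaks were called. With KCl it called 3 peaks at each time, 1 higher and 2 lower each, where 8.34%, 7.49% and 7.87% of all peaks were called. Over all peaks, higher calls outnumbered lower calls in every group. BDNF gave 7040 higher against 2694 lower (1 h), 5007 against 984 (6 h), then 4204 against 1072 (10 h). KCl gave 2985 against 1720, 3066 against 1159, then 3333 against 1107, in the same order. The few called peaks of clock genes showed no such excess with KCl, nor with BDNF at 1 h. Leaving out 1 library took the counts as low as 2 for BDNF at 1 h (either BDNF library), 0 for BDNF at 10 h (BDNF library A), 1 for KCl at 1 h (either KCl library), 0 for KCl at 6 h (KCl library B; 1 without library A or control library B of 6 h) and 0 for KCl at 10 h (KCl library A). For the count of 0, 1 of the 33 peaks had an unadjusted p below 0.05, and edgeR with TMM scaling and DESeq2 also called 0. The median change of the 33 peaks was -0.11, -0.01 and -0.13 with BDNF and 0.05, 0.02 and -0.05 with KCl, beside medians of -0.05 to 0.01 for all peaks.

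**Figure D4:**
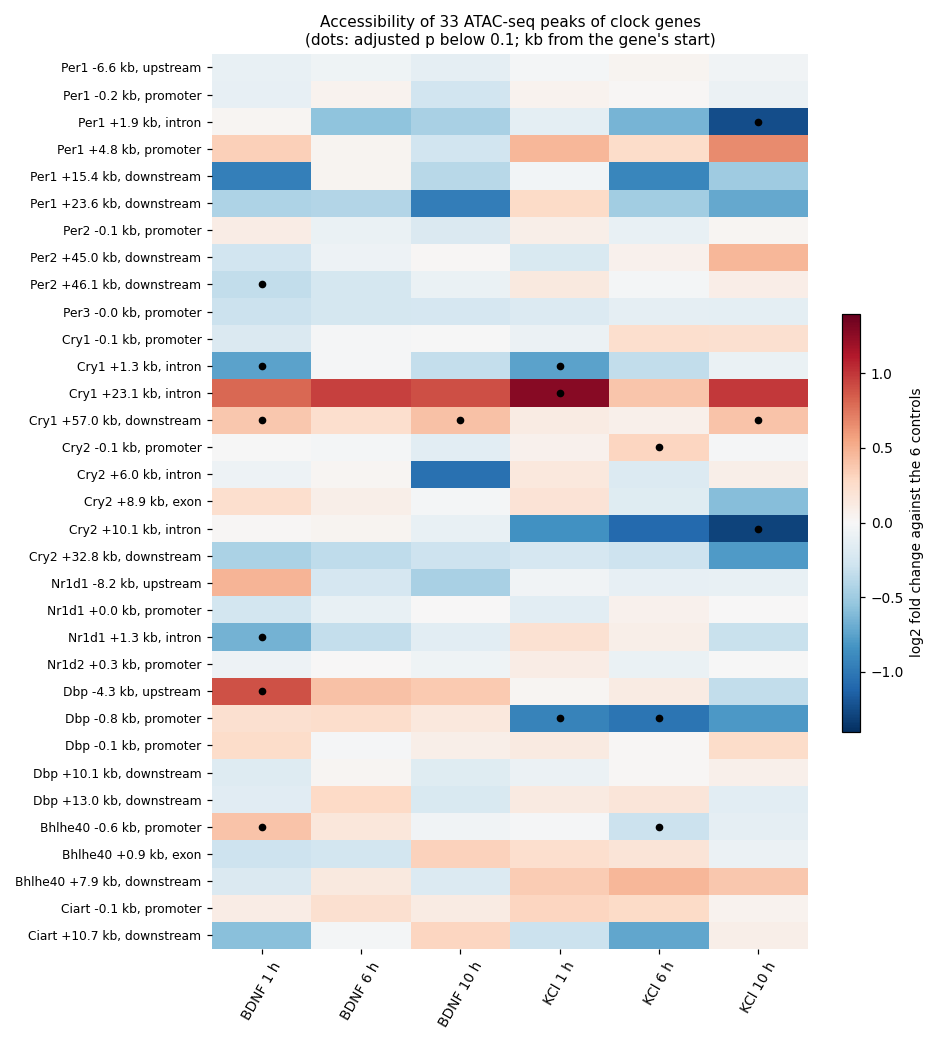
Log2 fold change of ATAC-seq counts against the 6 controls (colour, red higher and blue lower) for the 33 tested peaks of clock genes (rows, named by gene and distance in kb from the start of the gene) at each stimulus and time (columns); dots mark an edgeR adjusted p below 0.1. The dots number 6 for BDNF at 1 h, 1 for BDNF at 10 h and 3 for each time of KCl.

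The strongest peak call was at the Bhlhe40 promoter (chr6:108659158-108660890, its centre 0.605 kb before the start). Controls were between 368.3 and 445.5 (median 411.9) scaled counts, and the BDNF libraries of 1 h had 536.2 and 549.3, both above all controls. The rise was 0.40 ± 0.090 (edgeR adjusted p = 0.000275) and was the only one of the 6 calls of that group that no left-out library removed. With TMM scaling the same peak was called lower with KCl at 10 h (-0.40, 0.00333), where LOESS scaling gave -0.12 ± 0.10 (0.575). With KCl at 6 h the peak had 300.3 and 351.8, both below the controls, a fall of 0.30 (adjusted p = 0.0743) that was lost without either KCl library (-0.45 and -0.22, adjusted p = 0.154 and 0.457) or without library B of the 1 h or 6 h controls (-0.28 and -0.28, 0.127 and 0.130). Bhlhe40 RNA moved in the same directions in these 2 groups. With BDNF at 6 and 10 h the peak was not called, although the RNA was still raised by 1.44 and 0.99.

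Dbp had 2 called peaks, those whose sequences are given above. The peak 4.25 kb before the start (chr7:45700641-45701032) was between 21.2 and 56.5 (median 34.0) in controls and 61.2 and 68.2 with BDNF at 1 h, above all controls, with a rise of 0.90 ± 0.26 (edgeR adjusted p = 0.00899; without BDNF library A, 0.83 and 0.142). Dbp RNA was lower at that time. The peak 0.798 kb before the start (chr7:45704063-45704517) was between 37.7 and 63.8 (median 45.9) in controls, 21.0 and 30.2 with KCl at 1 h and 10.5 and 29.8 at 6 h, all below the controls. The falls were 0.94 and 1.02 (SE 0.29 and 0.33, adjusted p = 0.0391 and 0.0508). The first was lost without KCl library A (-1.19, 0.104) or B (-0.67, 0.467) and the second without KCl library B (-0.69, 0.422). With KCl at 10 h the change of the peak 0.798 kb before the start was -0.81, not called (edgeR adjusted p = 0.113). The peak over the start itself (chr7:45704568-45705337) had changes of -0.01 to 0.26 over the 6 comparisons, none called.

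**Figure D5:**
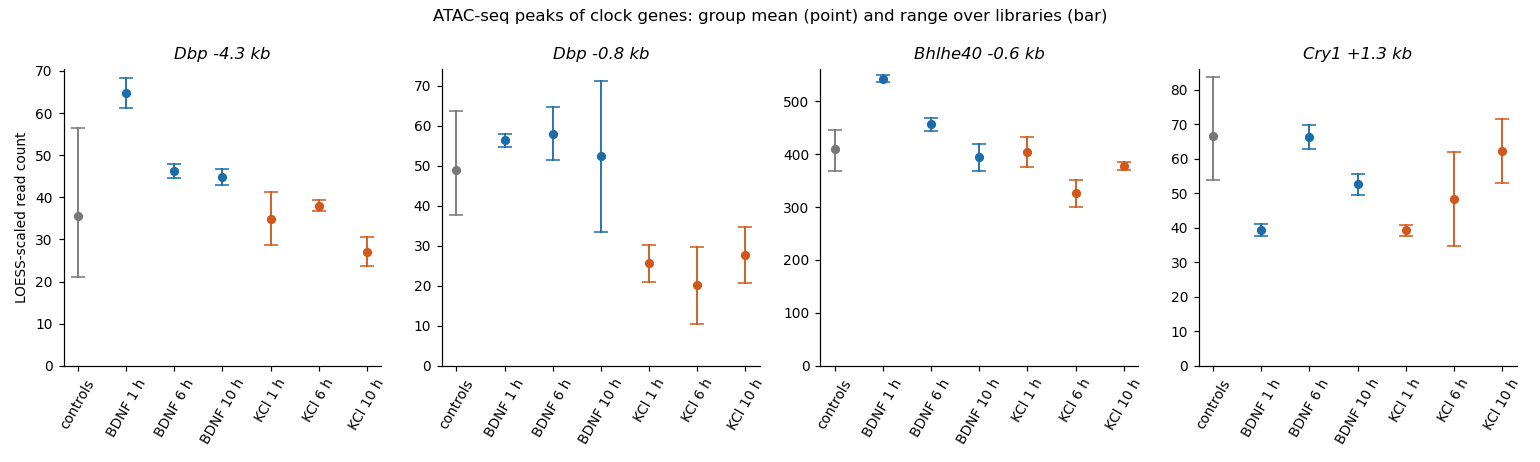
LOESS-scaled ATAC-seq read count (vertical axis, starting at 0) of 4 peaks of clock genes, each titled by gene and distance from the start, in the 6 controls and in the 2 libraries of each stimulated group; points are means and bars run from the lowest to the highest library. The peaks of Dbp at -4.3 kb and of Bhlhe40 were highest with BDNF at 1 h. The Dbp peak at -0.8 kb was low at 1 and 6 h of KCl (not called at 10 h), and the Cry1 intron peak was low at 1 h of both stimuli.

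At Cry1, the intron peak 1.29 kb after the start (chr10:85183589-85183957) was between 54.0 and 83.7 (median 63.6) in controls, 37.6 and 41.2 with BDNF at 1 h and 37.7 and 40.9 with KCl at 1 h. These 4 libraries lay below all controls. The falls were 0.75 with each stimulus (SE 0.25 and 0.24, adjusted p = 0.0251 and 0.0457), at the times when Cry1 RNA was highest, and each was lost without either of its 2 stimulated libraries (BDNF -0.68 and -0.81, adjusted p = 0.232 and 0.155; KCl -0.70 and -0.81, 0.284 and 0.241). A second intron peak 23.1 kb after the start (chr10:85161853-85162072) had low counts, between 2.0 and 15.1 (median 9.6) in controls and 16.2 and 29.4 with KCl at 1 h, a rise of 1.27 ± 0.43 (adjusted p = 0.0643) lost without KCl library A (0.78, 0.586), control library A of 6 h (1.07, 0.142) or control library B of 1 h (1.22, 0.10). The peak beyond the 3′ end of Cry1 (chr10:85127797-85128329) covers the start of Mterf2. Its rises were 0.38 ± 0.12 and 0.41 ± 0.13 with BDNF at 1 and 10 h and 0.39 ± 0.13 with KCl at 10 h (adjusted p = 0.018, 0.0354 and 0.0449). They were lost without BDNF library B of 1 h (0.32, 0.283), BDNF library A of 10 h (0.19, 0.732), and either KCl library of 10 h (0.47 and 0.31, 0.127 and 0.422). With TMM scaling the values of 10 h were 0.32 and 0.20, not called (0.137 and 0.385).

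At Per1, the promoter peak with its 2 E-boxes was between 244.1 and 300.5 (median 266.2) in controls and changed by -0.27 to 0.05 over the 6 comparisons, none called, also at 1 h of BDNF, when Per1 RNA had risen 5.18-fold. With TMM scaling it was called lower at 10 h of BDNF (-0.37, 0.0486) and of KCl (-0.31, 0.0760), and the former was also called without BDNF library B (-0.55, 0.0532). The Per1 intron peak with the CRE (1.94 kb after the start) was between 22.3 and 52.0 (median 35.9) in controls and 11.6 and 18.5 with KCl at 10 h, below all controls, a fall of 1.24 (SE 0.37, adjusted p = 0.0285) while the RNA was still raised. Without KCl library A it was -0.94 (0.382), and against the controls of 10 h alone -1.13 (0.173). The Per1 peak over the further downstream start (chr11:69099916-69100198) changed by -0.27 to 0.66, none called with LOESS scaling, and with TMM scaling it was called higher with KCl at 10 h (0.74, 0.0898). At Per2, the promoter peak (chr1:91459058-91459809) was between 310.3 and 337.4 (median 317.7) in controls and changed by -0.20 to 0.10, none called, but with TMM scaling it was called lower with BDNF at 10 h (-0.30, 0.0908) and KCl at 6 h (-0.31, 0.0708). A peak beyond the 3′ end of Per2 (chr1:91412901-91413624) fell by 0.35 with BDNF at 1 h (adjusted p = 0.0844), and this was lost without BDNF library A or B (-0.42 and -0.27, 0.185 and 0.501), control library A or B of 10 h (-0.29 and -0.34, 0.191 and 0.109) or control library A of 6 h (-0.34, 0.115). The Per3 promoter peak (chr4:151044271-151045106) was between 132.2 and 154.9 (median 150.7) in controls and changed by -0.30 to -0.13, none called with LOESS scaling and 1 called lower with TMM scaling, that of BDNF at 1 h (-0.37, 0.0859).

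At Cry2, the promoter peak (chr2:92433677-92434606) was between 292.4 and 350.0 (median 323.5) in controls and 379.9 and 426.3 with KCl at 6 h, a rise of 0.30 ± 0.11 (adjusted p = 0.0837), when its RNA was also higher. With TMM scaling the change was 0.09 (0.706), and the same peak was called lower with KCl at 10 h (-0.27, 0.0927). It was lost without KCl library A or B (0.40 and 0.23, 0.195 and 0.430), library A of the 1 h or 10 h controls (0.28 and 0.29, 0.139 and 0.113) or library B of the 6 h controls (0.30, 0.103). An intron peak of Cry2 (chr2:92423817-92424042) was between 16.3 and 43.5 (median 22.2) in controls and 7.7 and 13.3 with KCl at 10 h, a fall of 1.29 (SE 0.46, adjusted p = 0.0837), lost without KCl library A or B (-1.72 and -0.93, 0.185 and 0.524) or control library A or B of 1 h (-1.25 and -1.06, 0.113 and 0.219). The Nr1d1 intron peak with 2 E-boxes was between 56.8 and 78.1 (median 63.7) in controls and 35.8 and 45.5 with BDNF at 1 h, below all controls, a fall of 0.66 (SE 0.24, adjusted p = 0.0487) lost without either BDNF library (-0.50 and -0.84, 0.427 and 0.120). The promoter peaks of Nr1d1 (chr11:98775043-98775609), Nr1d2 (chr14:18238142-18239583), Cry1 (chr10:85184583-85185677) and Ciart (chr3:95881948-95882750) were not called in any comparison with LOESS scaling. Their changes were -0.26 to 0.06, -0.09 to 0.10, -0.20 to 0.23 and 0.05 to 0.30. With TMM scaling the Nr1d2 peak was called lower with KCl at 6 and 10 h (-0.37 and -0.33, 0.00372 and 0.00658) and the Cry1 peak with BDNF at 1 h (-0.30, 0.0475). Without KCl library A the Ciart peak was called higher at 1 h (0.48, 0.0767). A p above the threshold with 2 libraries per group leaves smaller changes possible.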

How the data were processed

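The 10 clock genes, the list of other pathway genes, the marker lists and the motifs were chosen with earlier results of these data known, so no list is independent evidence. RNA (oligo-dT capture, NEBNext Ultra II kit) was mapped by the authors to mm10 with TopHat2, and ATAC-seq reads with Bowtie2, with peaks called by MACS2 and counted by DiffBind. The counting program for genes and its use of strand are not given in the sources used here. For RNA, the authors deposited a signal, namely gene counts divided by DESeq2 size factors, and 100% of values in every library came out as whole reads within 0.01 of a read. The deposited ATAC values are whole counts per peak with a lowest value of 1, to which LOESS offsets were fitted here because the study scaled its peaks by LOESS. Columns that hold the fold changes and p-values of the authors were not used.

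RNA was tested with limma 3.58.1 (trend and robust options) in R 4.3.3 on log2(value + 1), with 7 levels (6 stimulated groups and the pooled controls), or with 9 levels for the controls and the changes in time. ATAC was tested with edgeR 4.0.16 (quasi-likelihood, robust, 7 levels). Features with a mean under 10 over 18 libraries were left out, p-values were two-sided and Benjamini-Hochberg adjusted over all features tested, and calls were made below 0.1. The tests were tested on simulated data with known changes. In that simulation the spread between libraries was set alike in all groups, which was not so in the real RNA libraries. Alternatives were edgeR and DESeq2 1.42.0 on the recovered reads, TMM scaling, pseudocounts of 0.5 and 5, no filter, controls of the same time, a threshold of 0.01, the library letter as a block, and each library left out in turn. Where this left a group with 1 library, it was assumed to vary like the other groups.

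All 10 members were named. Of the pathway list, Clock, Arntl, Npas2 and any gene called with a log2 change of at least 1 in size against controls were named, and of the peaks those over the starts of the members (1000 bases before to 100 after) and the called peak with the largest change of each member, to which other called peaks were added after their values were seen. For members with at least a 2-fold range of group means, the 3 genes with the highest r were named. RefSeq promoter windows (GRCm38.p6) were matched by symbol for 8 of 10 members, Per2 and Bhlhe40 having none used here, and motifs were searched on both strands. Peak windows were read from the GRCm38 genome. RNA columns carry a letter and ATAC columns only a group, so letters of ATAC libraries name columns in table order and pair nothing.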

Additional observations from a re-analysis of the deposited data

Results flagged for a closer look

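Nr1d1, Nr1d2 and Bhlhe40 were each called in opposite directions by the 2 stimuli at the same time, and the tests of the difference itself (limma, BDNF minus KCl) gave -1.48 for Nr1d1 at 1 h, -0.90 for Nr1d2 at 6 h and 1.78 for Bhlhe40 at 6 h. The BDNF side of the Nr1d1 pair (-0.35 at 1 h, adjusted p = 0.0826) kept its call in 8 of 17 alternatives, and the calls lost without single libraries are given above.

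The effect of a stimulus also differed between times by a test of the change itself, each time against its own controls. With BDNF from 1 to 6 h, the change was -2.09 for Per1, -1.57 for Per2, -0.66 for Nr1d2 and -0.53 for Cry1. With KCl from 1 to 6 h it was 0.93 for Per2, 0.85 for Cry2, 1.66 for Ciart, -1.0 for Per3 and -0.40 for Nr1d2. With KCl from 6 to 10 h it was 0.91 for Per3. The calls for Cry1, for Nr1d2 with KCl and for Per3 from 6 to 10 h were lost without single libraries, as given above.

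In the Per1 upstream peak (chr11:69088369-69088821, over the start of Vamp2), 1 of the 6 control libraries stood apart, with a gap to the nearest control of 0.647 of the whole control range. The controls of this peak ran from 14 to 46.9 scaled counts (median 38.2). Of the 43 members and peaks looked at in this way, this was the only one, and chance sets apart about 1 in 20.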

How the results depend on the processing

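Of the 40 RNA calls against controls, 29 kept their direction and stayed below the threshold in all 17 alternatives. Cry2 turned direction without KCl library B of 1 h, to 0.023 against controls and to -0.0087 for BDNF against KCl, where leaving out KCl library A gave -0.69 and 0.70. At an adjusted p below 0.01, the clock genes called were 5 for BDNF against KCl at 1 h, 3 at 10 h, 2 for the BDNF change from 1 to 6 h and 0 for the KCl change from 6 to 10 h. The peaks called were 2 for BDNF at 1 h, 0 at 10 h, and 0, 0 and 0 for KCl at 1, 6 and 10 h. With controls of the same time, 1 peak each was called for BDNF at 6 h, KCl at 6 h and KCl at 10 h. The one of KCl at 10 h lay beyond the 3′ end of Per2 (0.88, edgeR adjusted p = 0.0271) and was not called in the main fit. The Per1 intron, Cry2 intron and Cry1 3′ calls of that group were lost (0.173, 0.537 and 0.111). With KCl at 1 h the Cry1 intron and Dbp calls were lost (0.105, 0.353 and 0.103). A Cry2 intron peak and a Bhlhe40 downstream peak were called there instead (-1.37 and 0.83, 0.0884 and 0.0805). TMM scaling called 2 peaks for BDNF and 7 for KCl at 10 h, and DESeq2 called 2 and 5. The cause of these differences was not tested. Leaving out single libraries gave ranges of clock genes called of 4 to 6, 4 to 6 and 5 to 7 for BDNF at 1, 6 and 10 h, 7 to 8, 8 to 9 and 3 to 6 for KCl, and 5 to 8, 6 to 7 and 4 to 5 for BDNF against KCl. The ranges were 3 to 4 for the BDNF change from 1 to 6 h, 0 to 0 from 6 to 10 h, 4 to 5 and 0 to 1 for the KCl changes, and 0 to 0 for both comparisons of controls. For peaks they were 2 to 6, 0 to 0 and 0 to 2 with BDNF and 1 to 3, 0 to 3 and 0 to 4 with KCl.

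With the letter of the RNA libraries as a block, the call that changed was Per1 with BDNF at 10 h (0.19, adjusted p = 0.0788). Libraries of the same letter deviated together with r from -0.315 to 0.418 (median 0.065) over 36 pairs of groups, with 13 over 0.1. No label says what the letters mean, and this spread cannot tell whether they pair cultures, so they were not used as pairs in the main fits. No paired analysis was possible for ATAC because its columns carry no numbers or letters. Over all peaks, TMM scaling and DESeq2 called more peaks lower with KCl than LOESS scaling did (1107 lower and 3333 higher at 10 h with LOESS, 2944 and 5051 with TMM, 3308 and 3934 with DESeq2), and at 1 h LOESS gave 2985 higher and 1720 lower where DESeq2 gave 2448 and 2391. With controls of the same time, Dbp lost its calls with BDNF at 1 and 10 h (-0.57 and -0.54, adjusted p = 0.127 and 0.150) and with KCl at 10 h (-0.45, 0.179), and Ciart gained one with KCl at 6 h (0.65, 0.0952). DESeq2 lost Nr1d1 with BDNF at 1 h and KCl at 6 h (adjusted p = 0.112 and 0.105), and without a filter the former was 0.125. With edgeR on the recovered reads, 6481, 7151 and 6674 of all 16209 genes were called with BDNF at 1, 6 and 10 h and 8797, 10794 and 9155 with KCl, beside 6, 6 and 6 and 8, 9 and 5 of the clock genes. Low counts limit Ciart and the peaks with means near 10.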
